A study of Mus musculus with 4 samples.

Results

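Ski, Skil, Tgif1, Tgif2, Smurf1, Smurf2, Rnf111, Nedd4l and Wwp1 encode Smad corepressors or ubiquitin ligases that act on Smads, receptors or corepressors. They were taken by gene name from the joined expression table, where each name matched 1 entry, so that 9 of 55267 entries are described here. The cells were adult muscle stem cells (MuSCs) of female 9-week-old mice of the genotype C57BL/6N(Tg(Pax7-EGFP)Tajb), in which a Pax7-driven EGFP reporter was used to sort them after 1 day of culture. After 2 more days of culture, all cells were kept for 6 h without serum but with 200 ng/mL of a BMPR-1A-Fc chimera, a soluble receptor that binds BMPs. The 2 BMP6 libraries came from cells given 100 ng/mL BMP6 for 1 h, and the 2 control libraries came from cells given the vehicle, 4 mM HCl with 0.1% BSA, for the same time. PolyA RNA was sequenced in unstranded libraries. The study asked which genes respond directly and early to BMP in MuSCs, and 1 h is the only time measured in these libraries. The libraries are numbered as biological replicates 1 and 2 in both groups, and whether these were separate animals is not given in the sources used here.

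BMP receptors phosphorylate Smad1, Smad5 and Smad9, which join Smad4 and enter the nucleus. TGF-β and activin receptors do the same with Smad2 and Smad3. Ski and its relative SnoN, the product of Skil, bind Smads on DNA and bring in the NCoR and histone deacetylase complexes. Tgif1 and Tgif2 are homeodomain proteins that act as corepressors of Smad2 and Smad3. Smurf1, Smurf2, Nedd4l and Wwp1 are HECT ubiquitin ligases that mark Smads or, through the inhibitory Smads, the receptors for degradation. Rnf111 (Arkadia) is a RING ligase that marks Ski, SnoN and Smad7 and thereby acts in the opposite sense. Skil is known as an early target gene of TGF-β signalling.

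The first sequence is shown because the annotated Skil transcripts differ in it and the reads were split between them. It is the end of exon 4 of Skil in the reference genome (GRCm39, chr3:31167632-31167789, plus strand). The capitals mark a stretch of 138 bases (46 codons, chr3:31167652-31167789) that is coding in the transcripts with the long form of the exon and absent from those with the short form. The lower-case letters are the last 20 bases shared by both forms.
Skil exon 4: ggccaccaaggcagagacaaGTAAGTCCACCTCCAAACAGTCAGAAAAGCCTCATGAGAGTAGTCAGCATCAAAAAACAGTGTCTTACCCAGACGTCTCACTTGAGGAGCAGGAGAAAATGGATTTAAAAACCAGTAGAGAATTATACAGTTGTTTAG
The capitals begin with GT, the letters at which most introns begin, and 40.6% of the 138 capitals are G or C.

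The second sequence is the promoter window of Ski, 250 bases before to 50 after the annotated start, shown for its letters that match Smad-binding elements. It was taken from RefSeq (GRCm38.p6, chr4:155222486-155222785, minus strand, a different build from that of the expression data). The letters searched for on both strands were CAGAC, which Smad3 and Smad4 bind, and GGCGCC and GGAGCC, GC-rich elements of Smad1 and Smad5. Capitals mark matches.
Ski promoter: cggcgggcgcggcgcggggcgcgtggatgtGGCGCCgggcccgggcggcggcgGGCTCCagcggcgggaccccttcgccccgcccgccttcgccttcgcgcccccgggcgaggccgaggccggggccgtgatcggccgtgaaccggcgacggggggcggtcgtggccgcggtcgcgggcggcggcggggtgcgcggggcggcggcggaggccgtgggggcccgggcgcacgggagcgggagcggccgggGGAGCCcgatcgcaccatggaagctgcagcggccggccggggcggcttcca
The window is 85.3% G and C and holds GGCGCC 1 time, GGAGCC 2 times (1 as its reverse complement, GGCTCC) and CAGAC 0 times. Windows of the same 300 bases were found for 6 of the 9 genes, 11 windows in all, and not for Skil, Nedd4l and Wwp1. CAGAC occurred in 7 of the 11 windows and in 49.6% of 32851 promoters of that length. GGCGCC occurred in 3, those of Ski and Smurf2 and 1 of Rnf111, against 11.9% of promoters. GGAGCC occurred in 5, against 30.8%. A match is a description of the letters and not a site.

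Of the 9 genes, Skil rose after 1 h of BMP6 and no other passed the test. Expression is given as TPM, a transcript level per length that sums to 1000000 in each library, and differences are on the scale of log2(TPM + 1), BMP6 minus control. A gene was called when it changed at least 2-fold on that scale with an adjusted p under 0.1 in limma, fitted without a replicate block over the 13128 entries whose mean reached 1 TPM, as all 9 genes did. By this rule 1 of the 9 was called higher, where 24 of all entries tested (0.183%) were. The 13128 include 2483 entries that could not be called because of their names, while all 9 genes could. None of the 9 was called lower, and neither was any other entry (0%). At an unadjusted p under 0.05 in limma without the block, Skil was again the only one of the 9. Of all entries, 307 (2.34%) were higher and 113 (0.861%) lower at that limit. With replicate number as a block in limma, 1 of the 9 was called, Skil, where 0.274% of entries were called higher and 0.00762% lower. Fewer cells with a transcript and less transcript per cell cannot be told apart in these bulk libraries.

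In the control libraries, from cells given the vehicle for 1 h, Tgif1 was the most abundant of the genes per length, at a mean of 76.7 TPM. Skil followed at 11.4 TPM and Rnf111 at 8.22 TPM. These 3 did not overlap with their neighbours in the order. The other 6 overlapped with the next in order, from Nedd4l at 5.50 TPM over Tgif2 (5.41), Smurf1 (4.69), Ski (3.43) and Wwp1 (3.18) down to Smurf2 at 2.90 TPM. After BMP6 the mean level of Skil was 40.4 ± 5.88 TPM (SD, n = 2), still below that of Tgif1 at 80.9 ± 16.3 TPM.

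**Figure D1:**
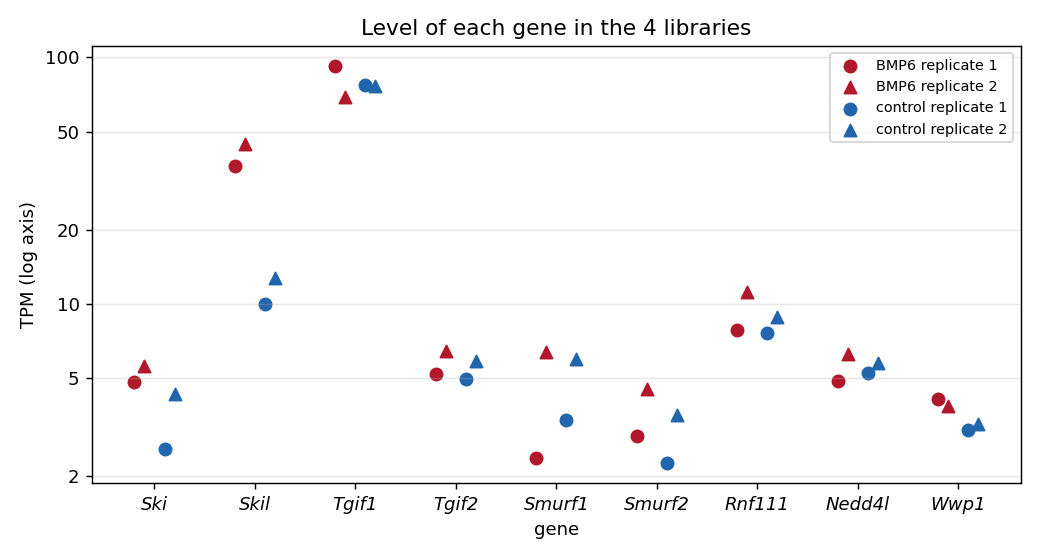
TPM of each of the 9 genes (log axis) in the 2 BMP6 libraries (red) and the 2 control libraries (blue), circles for replicate 1 and triangles for replicate 2. Skil stands at 36.2 and 44.5 TPM with BMP6 and at 10.0 and 12.7 TPM without, while most other genes overlap between the groups.

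Skil, which encodes the corepressor SnoN (GRCm39, chr3:31149207-31176726, plus strand), was measured at 36.2 TPM in BMP6 replicate 1 and 44.5 TPM in BMP6 replicate 2, against 10.0 and 12.7 TPM in the controls. Both BMP6 libraries were above both controls, and replicate 2 was above replicate 1 in each group. The difference was 1.74 on the log2(TPM + 1) scale (SE 0.163, 95% interval 1.34 to 2.14), a fold of 3.35 (2.54 to 4.42), with an adjusted p of 0.0418 in limma. Within replicate 1 the difference was 1.76 and within replicate 2 it was 1.73. With replicate number as a block, the SE was 0.082 and the adjusted p 1.98e-05. The call was lost with an adjusted p of 1 when entries of low TPM were kept in the limma fit, and with an adjusted p of 0.1015 when limma fitted no trend of variance on level.

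The higher level of Skil was seen along its whole length. Exons that overlap between its transcripts were joined into 7 blocks, and the depth of each was summed over transcripts and scaled to 100000000 reads. All 7 blocks were deeper with BMP6 in both replicates. Blocks of a gene come from the same libraries and are not replicates, here and for the genes below. Such blocks were not counted for other entries, so no share stands beside these counts. The log2 ratio ranged from 0.32 to 1.94 in replicate 1 and from 1.45 to 2.27 in replicate 2. The last block, 4123 bases at the 3′ end, was at a depth of 232.5 and 273.7 with BMP6 and of 60.6 and 79.5 in the controls. The first block, 100 bases at the 5′ end, was at 6.49 and 7.42 against 5.22 and 2.72 and had the lowest ratio in both replicates. The block that holds the exon 4 stretch shown above was at 87.5 and 126.9 against 32.6 and 26.3.

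Which Skil transcript carried the higher level could not be told from these files. The split of reads between transcripts is an estimate by StringTie, the quantification program of the study. ENSMUST00000118470.8, with the short exon 4, was at 15.5 and 7.96 TPM with BMP6 and at 1.94 and 10.3 TPM in the controls. ENSMUST00000029194.12, with the long form, was at 10.9 and 3.56 against 0.979 and 1.20 TPM. ENSMUST00000118204.2, also with the long form, was at 9.81 and 33.0 against 7.08 and 1.20 TPM. The BMP6 libraries were above both controls in the 2 long forms and overlapped with them in the short form. The share of all transcripts tested that lay above both controls was not counted, so this does not single out the long forms. For the Skil transcripts the log2 differences were 1.08 (SE 0.77), 1.82 (SE 0.52) and 2.18 (SE 0.90), in the order given above. The transcripts with the long exon 4 took 57.1% and 82.1% of the Skil TPM with BMP6 and 80.6% and 18.9% in the controls. These shares thus differed more between replicates of a group than between the groups.

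**Figure D2:**
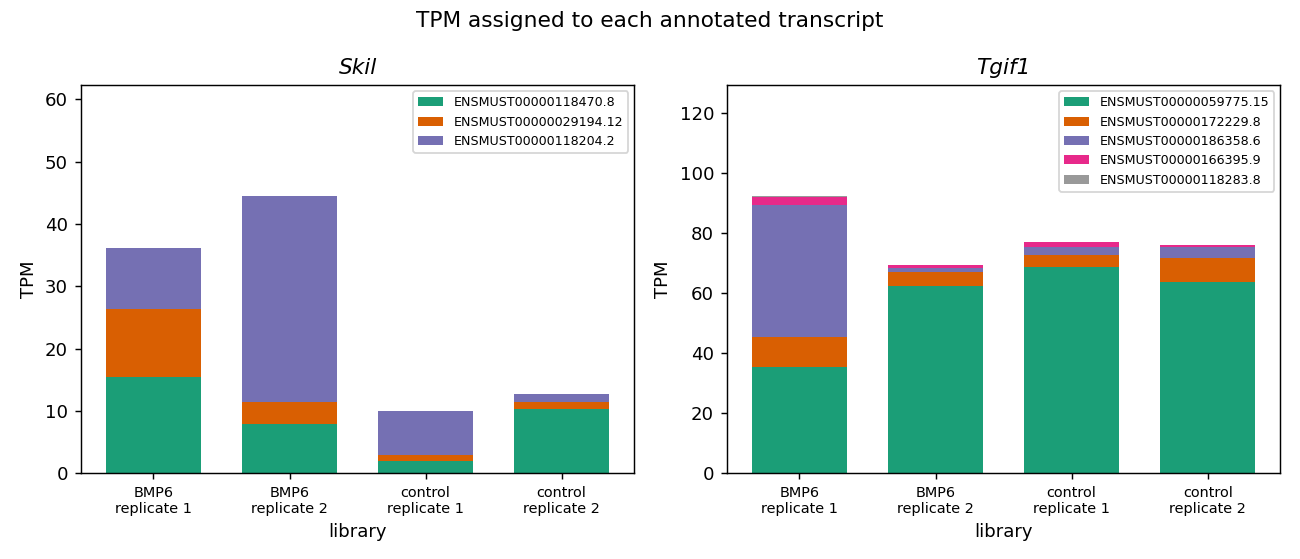
TPM assigned to each annotated transcript of Skil (left) and Tgif1 (right) in the 4 libraries, stacked to the sum of the gene. The total of Skil is higher in both BMP6 libraries, while the split among its transcripts changes between replicates, and in Tgif1 ENSMUST00000186358.6 takes 44.0 TPM in BMP6 replicate 1 and no more than 3.67 TPM elsewhere.

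Over all 9 genes, 38 transcripts were listed, of which 15 reached a mean of 1 TPM and 9 were at 0 in all libraries. None of the 15 was called in limma on transcript TPM, where 6 of 19346 transcripts (0.031%) were called higher and 7 (0.0362%) lower. At an unadjusted p under 0.05 in limma there was 1, ENSMUST00000029194.12 of Skil (adjusted p 0.88), where 913 of all transcripts tested (4.72%) were. With the replicate block, 0 of the 15 were called as well.

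Ski, the founding member of this corepressor family (chr4:155238532-155307049, minus strand), was at 4.81 and 5.58 TPM with BMP6 and at 2.57 and 4.29 TPM in the controls. Both BMP6 libraries were above both controls, with the lowest value in control replicate 1. The difference was 0.51 (SE 0.219, 95% interval −0.03 to 1.04), with an adjusted p of 1.00 in limma without the block and 0.151 with it. Within replicates 1 and 2 it was 0.70 and 0.31. In limma-voom on rebuilt reads with the block, the adjusted p was 0.0923 and the log2 difference 0.60, which is under 2-fold. Without control replicate 1 the difference was 0.22, and without control replicate 2 it was 0.79. Of the 7 exon blocks of Ski, 6 were deeper with BMP6 in both replicates, and in block 4 the log2 ratio was −0.07 in replicate 2. The last block, of 3455 bases, was at a depth of 38.9 and 44.7 against 21.6 and 35.3. The first block, of 1041 bases, was covered at a depth of only 1.53 and 1.22 with BMP6 and 0.114 and 0.392 in the controls. One Ski transcript, ENSMUST00000030917.6, held all of its TPM and differed by 0.51 (SE 0.26).

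**Figure D3:**
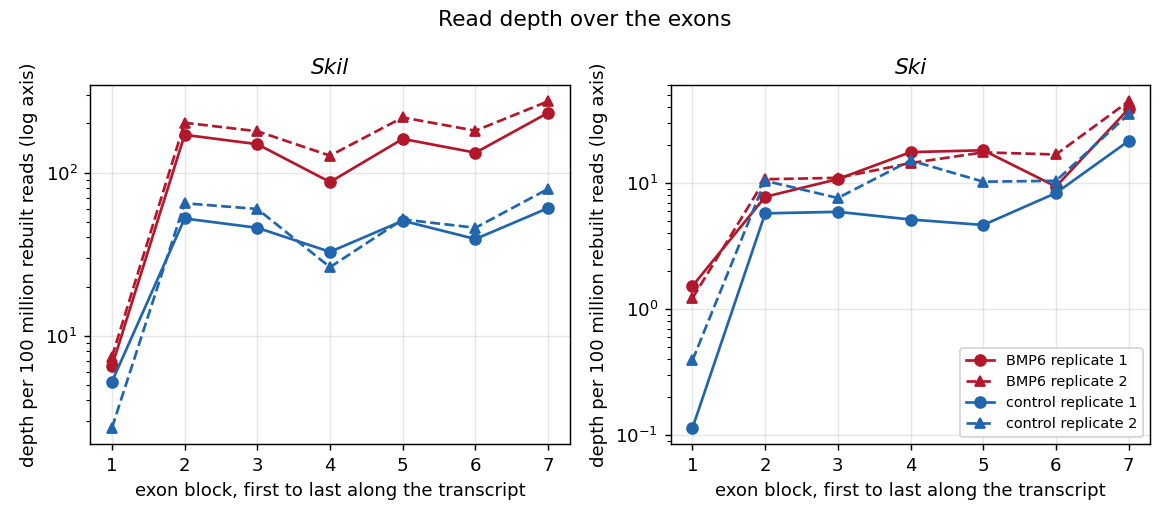
Depth of each exon block per 100000000 rebuilt reads (log axis) along Skil (left) and Ski (right), first to last exon, in BMP6 (red) and control (blue) libraries, solid for replicate 1 and dashed for replicate 2. All 7 Skil blocks are deeper with BMP6 in both replicates, while the replicate 2 lines of Ski meet at block 2 and cross at block 4.

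Tgif1 and Tgif2, the homeodomain corepressors, gave no difference that passed the test. Tgif1 (chr17:71151200-71160541, minus strand) was at 92.5 and 69.4 TPM with BMP6 and at 77.1 and 76.2 TPM in the controls. The BMP6 libraries lay above and below both controls. Its difference was 0.06 (SE 0.145, 95% interval −0.29 to 0.42), with 0.26 in replicate 1 and −0.13 in replicate 2. Most of the Tgif1 TPM was assigned to ENSMUST00000059775.15, at 62.3 to 68.9 TPM in 3 libraries. In BMP6 replicate 1 it was at 35.5 TPM, and ENSMUST00000186358.6 was at 44.0 TPM against 1.47 to 3.67 TPM in the other libraries. ENSMUST00000172229.8 was at 3.83 to 9.99 TPM and ENSMUST00000166395.9 at 0.673 to 2.66 TPM. The log2 differences of these 4 transcripts were −0.49 (SE 0.30), 1.32 (SE 1.50), 0.27 (SE 0.48) and 0.29 (SE 0.48).

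Tgif2 (chr2:156681927-156697490, plus strand) was at 5.19 and 6.42 TPM with BMP6 and at 4.98 and 5.85 TPM in the controls, and the groups overlapped. The difference was 0.08 (SE 0.162, 95% interval −0.31 to 0.48). All of its TPM was in ENSMUST00000081335.13. Of its 2900 exonic bases, 1402 (48.3%) overlap exons of 5430405H02Rik on the other strand, an entry at 3.11 to 4.14 TPM, and without strand the reads there cannot be told apart. A pseudogene, Tgif2-ps2, matches a Tgif2 transcript over 711 bases at 99.58% identity and was at 1.50 to 1.82 TPM. In all, transcripts of 133 other genes held a stretch of at least 100 bases with at least 95% identity to a Tgif2 transcript. The value of Tgif2 is therefore uncertain. For Skil, Ski and Smurf1 this count was 0.

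Smurf1 and Smurf2, the ligases that mark BMP Smads and, with Smad7, the receptors, differed more between replicates than between groups. Smurf1 (chr5:144813305-144902657, minus strand) was at 2.36 and 6.38 TPM with BMP6 and at 3.39 and 5.99 TPM in the controls. Replicate 2 was above replicate 1 in both groups, and the lowest and the highest value were both from BMP6 libraries. The difference was −0.15 (SE 0.405, 95% interval −1.15 to 0.84), with −0.39 in replicate 1 and 0.08 in replicate 2. Its main transcript, ENSMUST00000085684.11, was at 2.12 and 2.56 against 2.88 and 4.52 TPM (log2 difference −0.47, SE 0.25). Behind the Smurf1 values stood 751 and 1826 rebuilt reads with BMP6 and 1076 and 1776 in the controls.

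Smurf2 (chr11:106710892-106811587, minus strand, in an entry that also holds Gm56268) was at 2.91 and 4.53 TPM with BMP6 and at 2.25 and 3.55 TPM in the controls. The groups overlapped, and the difference was nearly the same within replicate 1 (0.27) and replicate 2 (0.28). The fitted difference was 0.27 (SE 0.244, 95% interval −0.33 to 0.87), and the adjusted p in limma with the block was 0.374. Of 19 Smurf2 exon blocks, 12 were deeper with BMP6 in both replicates, against 0 of 19 for Smurf1. These counts largely restate the differences within replicates of each gene and add no separate support. ENSMUST00000103067.10 held most of the Smurf2 TPM, at 2.79 and 4.44 against 2.14 and 3.38 TPM (log2 difference 0.29, SE 0.30). In the newer annotation GENCODE M39 a transcript of Cep95 on the other strand covers 933 bases of it, and Cep95 was at 4.12 to 5.69 TPM.

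Rnf111, whose product marks Ski and SnoN for degradation (chr9:70332711-70411007, minus strand), was at 7.85 and 11.2 TPM with BMP6 and at 7.61 and 8.84 TPM in the controls. The groups overlapped, and BMP6 replicate 2 was the highest. The difference was 0.18 (SE 0.191, 95% interval −0.29 to 0.64), with 0.04 and 0.31 within replicates 1 and 2. Its transcript ENSMUST00000034739.12 was at 5.99 and 7.46 against 4.78 and 5.40 TPM (log2 difference 0.34, SE 0.18). ENSMUST00000213647.2 was at 0.369 and 3.76 against 2.82 and 3.44 TPM (−0.69, SE 0.67). The difference between Rnf111 and its substrate Skil in response was not tested.

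Nedd4l and Wwp1 are relatives of the Smurfs. Nedd4l, which acts on phosphorylated Smad2 and Smad3 (chr18:65020776-65350899, plus strand), was at 4.86 and 6.24 TPM with BMP6 and at 5.24 and 5.76 TPM in the controls. The BMP6 values lay on both sides of the controls. The difference was 0.00 (SE 0.162, 95% interval −0.39 to 0.40). ENSMUST00000236736.2, the only one of its 13 transcripts with a mean of at least 1 TPM, was at 1.83 and 5.59 against 2.03 and 2.75 TPM (log2 difference 0.36, SE 0.48).

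Wwp1 (chr4:19608303-19708993, minus strand) was at 4.12 and 3.85 TPM with BMP6 and at 3.09 and 3.27 TPM in the controls. Both BMP6 libraries were above both controls, but the distance was small. The difference was 0.25 (SE 0.140, 95% interval −0.09 to 0.60), with 0.33 and 0.18 within replicates 1 and 2, and an adjusted p in limma of 1.00 without and 0.408 with the block. Of 25 exon blocks, 15 were deeper with BMP6 in both replicates. Nearly all of the TPM was in ENSMUST00000108246.9, at 4.07 and 3.64 against 3.05 and 3.03 TPM (log2 difference 0.26, SE 0.16). Rmdn1, at 20.6 to 22.0 TPM, lies on the other strand and shares 46 exonic bases with Wwp1 in the authors' files, but 3007 bases in GENCODE M39. Reads from there cannot be told apart without strand.

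**Figure D4:**
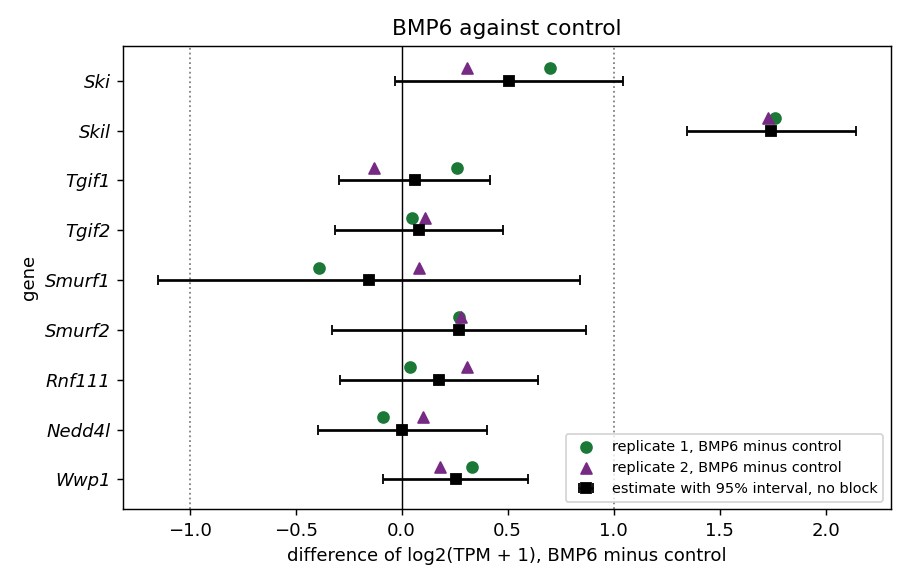
Difference of log2(TPM + 1), BMP6 minus control, for each gene, with its 95% interval from limma without the block (squares and bars) and the differences within replicate 1 (circles) and replicate 2 (triangles). Dotted lines mark a 2-fold change. The Skil interval, 1.34 to 2.14, is the only one drawn that excludes 0 among the 9. With the replicate block, not drawn, the intervals of Ski (0.21 to 0.80) and Smurf2 (0.01 to 0.54) excluded 0 as well. Their adjusted p in that limma fit was 0.151 and 0.374. The share of all entries whose interval excluded 0 with the block was not counted, so these intervals cannot be set against it.

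The 8 genes other than Skil all had an adjusted p of 1.00 in limma without the block and none had an unadjusted p under 0.05. For Tgif1, Tgif2, Rnf111, Nedd4l and Wwp1 the 95% interval excluded a 2-fold change in either direction, under each alternative run as well. That of Smurf2 did so on the log2(TPM + 1) scale, but its upper limit was 1.12 with a pseudocount of 0.1, 1.25 without a filter, 1.11 in voom on rebuilt reads, and 1.13 without either BMP6 replicate 1 or control replicate 2. Tgif2, Smurf2 and Wwp1 share sequence with genes on the other strand, as given above, and their intervals do not cover this uncertainty. The intervals of Ski (−0.03 to 1.04) and Smurf1 (−1.15 to 0.84) did not exclude a 2-fold change in limma without the block. With the block both excluded it, at 0.21 to 0.80 and −0.46 to 0.16, and the other alternatives were mixed. In 3 of the 9 genes, Skil, Ski and Wwp1, both BMP6 libraries were above both controls, where 16.6% of all entries tested were. Both were below both controls in 0 of 9, against 11.6% of entries. In 6 of 9 the BMP6 library was higher in both replicates, against 35% of all entries, and in 0 of 9 it was lower in both, against 25.7%. The median difference was 0.18 over the 9 genes, 0.13 without Skil, and 0.02 over all entries tested.

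Replicate number moved with the levels of most of these genes. In 7 of the 9, replicate 2 was above replicate 1 in both groups, against 40.7% of all entries tested. The gap was largest in Smurf1, at 1.13 in the BMP6 libraries and 0.67 in the controls on the log2(TPM + 1) scale. In Smurf2 it was 0.50 and 0.48, in Ski 0.18 and 0.57 and in Skil 0.29 and 0.32. Tgif1 went the other way, at −0.41 and −0.02. In 6 of the 9 genes the mean gap between replicates was larger than the difference between BMP6 and control, and Skil was not among these. This was also so in 8436 of all 13128 entries tested.

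**Figure D5:**
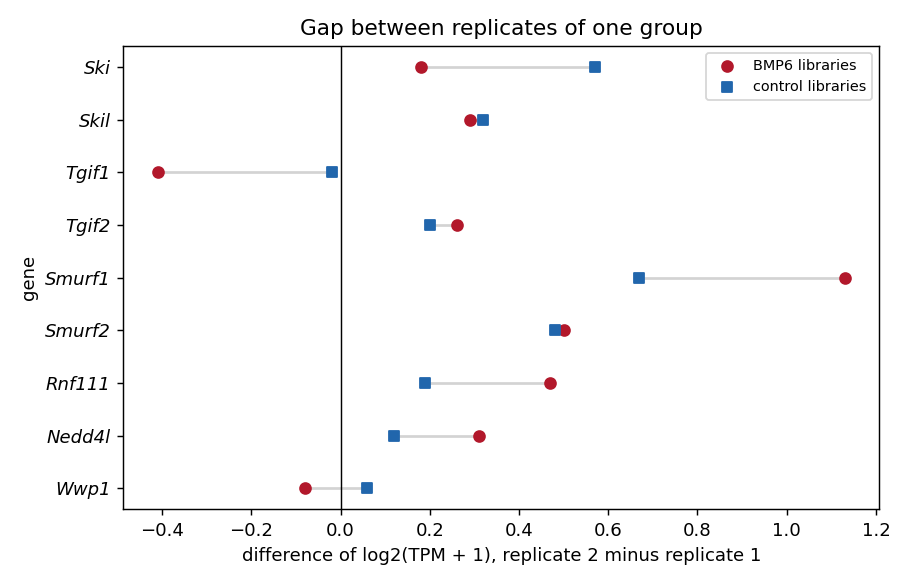
Difference of log2(TPM + 1) between replicate 2 and replicate 1 in the BMP6 libraries (circles) and in the control libraries (squares) for each gene. Both points lie right of 0 in 7 of the 9 genes, farthest in Smurf1 at 1.13 and 0.67, and both lie left of 0 in Tgif1.

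The entries whose levels over the 4 libraries were most like those of Skil were Pwwp2b, Klf10 and Cldn9. Likeness was the root mean square difference of log2(TPM + 1) profiles over 4 libraries, each centred on its mean. Of the 13128 entries tested, the 2483 kept out of calls by their names were left out here as well. Pwwp2b, a chromatin protein, had a distance of 0.031 and levels of 5.93 and 7.03 TPM with BMP6 against 0.947 and 1.47 TPM. Klf10, a zinc finger repressor known as an early TGF-β target, had a distance of 0.047 and levels of 165 and 193 against 46.4 and 54.9 TPM. Cldn9, a tight junction claudin, had a distance of 0.053 and levels of 3.22 and 4.28 against 0.28 and 0.716 TPM. It was under 1 TPM in the controls and was among the entries tested only through its BMP6 libraries. Their log2 differences were 1.77, 1.80 and 1.67. This scale understates changes of low genes, and on TPM itself Pwwp2b and Cldn9 rose by a larger fold than Skil.

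The proteins with which these corepressors and ligases work were examined as lists. An adjusted p under 0.1 in limma, with no limit on the fold, was reached by 0.236% of all entries upward and 0.00762% downward, and with the replicate block by 1.23% and 0.404%. Of 8 Smads, 7 were tested and 1 passed, Smad7, the inhibitory Smad that brings Smurfs to the receptors. Smad7 was at 5.12 and 7.36 TPM with BMP6 and at 0.633 and 0.926 TPM in the controls, a log2 difference of 2.01 (SE 0.203, adjusted p 0.0511 in limma). With the replicate block Smad6, the other inhibitory Smad, passed as well (adjusted p 0.00169 in limma), at 4.13 and 10.6 against 0.621 and 0.673 TPM. Both inhibitory Smads were under 1 TPM in the controls and reached the filter only through their BMP6 libraries. The 5 Smads tested that carry the signal, Smad1 to Smad5, did not pass. The median difference over the 7 was 0.13.

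Of 15 corepressor partners and other inhibitors of Smads, 10 were tested, among them NCoR, Sin3 and histone deacetylase subunits. None passed without the block, 5 were higher and 5 lower, and the median was 0.01. With the block 1 passed, Pmepa1, which encodes a membrane protein that binds receptor Smads. It was at 16.2 and 20.7 TPM with BMP6 and at 8.79 and 11.9 TPM in the controls (log2 difference 0.78, adjusted p in limma 0.00352 with and 0.873 without the block). Skor1, Skor2 and Dach1, further relatives of Ski, were below the filter, at no more than 0.13 TPM in any library.

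None of the other ligases and their opponents passed in limma, with or without the block. Of 7 other HECT ligases of the Nedd4 type and their adaptors 5 were tested, with a median difference of 0.08. Of 8 further ligases that act on Smads or receptors 7 were tested, with a median of 0.05, and of 8 deubiquitinases all were tested, with a median of 0.10.

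Of 6 genes known as immediate BMP targets all 6 were higher and 5 passed in limma without the block (Id1, Id2, Id3, Atoh8 and Smad7). Smad6 and Smad7 were among those tested only through their BMP6 libraries. Id1 was at 583.8 and 512.9 TPM with BMP6 and at 90.5 and 129 TPM in the controls, a log2 difference of 2.33 (adjusted p 0.0164 in limma). In units of 1000000, the libraries held 108.1 to 112 rebuilt reads, and each had 13002 to 13203 entries at 1 TPM or more. Correlations between libraries lay between 0.9884 and 0.995. All 7 muscle stem cell and myogenic markers were expressed, Pax7 at 8.29 to 11.7 TPM and Myog at 4400 to 5472 TPM. None passed without the block, and with it Des was lower by −0.24 (adjusted p 0.0312 in limma). Endothelial markers were at no more than 0.143 TPM, Schwann cell markers at no more than 0.601 TPM and immune markers at no more than 1.68 TPM. Among fibroblast markers Col3a1 reached 109 TPM and Pdgfra 0.164 TPM, and the 4 summed to 166 and 105 TPM with BMP6 and to 174 and 124 TPM in the controls. In the pericyte and smooth muscle list Acta2, which muscle cells in culture also express, was at 2906 to 3251 TPM. Of the same list, Pdgfrb was at 4.41 to 4.93 TPM and Rgs5 stayed under 1 TPM. No list of other cell types had a member that passed, and their part in the results on the 9 genes was not tested.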

How the data were processed

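The authors aligned reads with STAR 2.7.11a to GRCm39 with GENCODE M32, assembled and merged transcripts and quantified each library with StringTie 2.2.1 (versions per the labels, with SAMtools 1.17). The authors deposited TPM per gene, and FPKM per gene in a second table. The signal the authors deposited per transcript and exon is coverage, unscaled to library size. Per the file headers, the correction for reads aligned to several places was switched off. The joined TPM equalled the library tables in all 221068 values (tolerance 1e-06).

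Reads were rebuilt as coverage times length divided by 100 bases, and cover aligned bases and not molecules. Differences were tested with limma 3.58.1 in R 4.3.3 (two-sided, variance trend, Benjamini-Hochberg adjustment over all entries) on log2(TPM + 1), a scale that understates changes of low genes. As in the study's methods, 2483 tested entries with provisional, microRNA, antisense or pseudogene names, or none, were kept out of calls. Fits were checked on simulated data. A permutation test over 4 libraries cannot go below p = 0.333 and was not used.

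The labels name a shared biological replicate as batch, so same-numbered libraries are pairs. Their deviations from the group means correlated at 0.5629 over entries (2 pairs). The block is the alternative, since the study's methods name none for its test of differential expression (a paired design is named for its heatmaps). The main fit thus leaves the pairing out, and its SE was the larger for every gene described here. For Smurf1 it was 0.405, against 0.136 with the block. An adjusted p under 0.1 in limma was reached by 32 entries without the block and by 215 with it. With 2 libraries a group, p-values measure the spread between these samples, which limma moderates with the variance of the other entries. They therefore also depend on the filter and on the variance trend.

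All 9 genes, their transcripts of at least 1 TPM, list genes past the adjusted p and Id1, and the 3 profiles nearest to Skil were named by rule. Smad6, Pmepa1, Des, the marker genes given with values, and entries that overlap or resemble Tgif2, Smurf2 or Wwp1 were named after their values were seen. Genes and lists were chosen with earlier results of these data known. Copies were sought with blastn 2.17.0 in GENCODE M39 transcripts (at least 100 bases at 95% identity). Ctbp2 names no entry and was not tested. A comparison of protein sequences was not made.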

Additional observations from a re-analysis of the deposited data

How the results depend on the processing

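Of 131 alternative values of the 9 differences, 117 kept their direction and their side of the threshold, 12 turned in sign and 2, both of Skil, lost the call. Ski, Smurf2 and Wwp1 kept both under all 14 alternatives each (with a minimum mean of 5 TPM, these 3 and Smurf1 were not tested). Skil kept its direction in 15 of 15. Each difference was left as it was by the replicate block, the changed filters, the fit without a trend and the adjusted p under 0.05. In these settings no sign could turn, and at 0.05 no further gene could be called. The replicate block changed no call among the 9 genes (1 called) or their transcripts, and gave 36 entries called higher and 1 lower. The number of genes called higher, 24, became 15 with a pseudocount of 5, 15 with a minimum mean of 5 TPM, 12 without the variance trend, 11 at an adjusted p under 0.05, 56 in voom with the replicate block, and 1 without a filter. The number called lower, 0, became 6 in voom with the block and ranged from 1 to 7 when 1 library was left out. Of the 9 genes, 0 were called without a filter (Skil adjusted p 1 in limma) and 0 without the trend (0.1015). Over its alternatives the adjusted p of Skil ran from 2.96e-06 to 1, and its difference from 1.58 to 1.90 when 1 library was left out. An arm with 1 library left was assumed to vary like the other. With 1 library left out, Tgif1 ranged from −0.1428 (without BMP6 replicate 1) to 0.267, and Tgif2 from −0.0486 (without BMP6 replicate 2) over −0.0162 (without control replicate 1) to 0.2134. Smurf1 ranged from −0.7208 to 0.4138 (without BMP6 replicate 1), with 0.1819 without control replicate 2, Smurf2 from 0.0233 (without BMP6 replicate 2) over 0.031 (without control replicate 1) to 0.5233 (without BMP6 replicate 1), and Rnf111 from −0.0562 (without BMP6 replicate 2) to 0.41. Nedd4l, at 0.00, ranged from −0.1495 (without BMP6 replicate 2) over −0.0541 (without control replicate 1) to 0.1572, and turned to −0.0305 with quantile normalization, −0.0152 with FPKM, −0.0155 in voom and −0.0112 in voom with the block. The causes were not tested.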
